A study of Mus musculus with 26 samples.

Results

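The circadian clock genes described here are the 10 core members of the mammalian clock named by the array annotation: Arntl (also written Bmal1), Clock, Per1, Per2, Per3, Cry1, Cry2, Nr1d1, Nr1d2 and Dbp. Each was read by its brightest probe set annotated to that gene alone, and 10 of 10 were among the 12580 genes tested. Pancreatic islets, the hormone-secreting cell clusters of the pancreas, came from wild-type C57BL/6J male mice, and RNA from 26 samples was amplified and hybridised to Affymetrix mouse arrays. Old mice were 56 weeks of age and young mice were 5 weeks of age. Old islets were either fresh or had recovered for 1 day at 11 mM glucose and then been cultured for 2 days at 3, 5.5 or 11 mM. Young islets were fresh or cultured in the same way at 3, 5.5, 11 or 16 mM. A separate time course of young islets began after a night at 3 mM (0 h) and was followed for 1 h and 4 h at 11 mM. Every group had 2 arrays except young 11 mM, which had 4. Whether each replicate came from 1 mouse or from a pool is not given in the labels, and the p-values therefore measure the variation among the samples as they are. The labels give no clock time of isolation or harvest. The time course included no parallel islets left at 3 mM, and in it the effects of glucose and of hours in culture cannot be told apart.

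In the mammalian clock, the proteins ARNTL and CLOCK bind together to E-box sequences and switch on the Per and Cry genes, whose products return to the nucleus and block ARNTL and CLOCK. The same activators switch on Nr1d1 and Nr1d2, which encode the nuclear receptors REV-ERB alpha and beta, and these repress Arntl through ROR response elements. Dbp, an output of the loop, encodes a transcription factor that binds D-box sequences, and NFIL3 competes with it there. The clock runs within islet cells, and mice that lack Arntl in beta cells secrete insulin poorly.

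The regulatory sequence of the members is shown first because their known wiring runs through these short motifs. RefSeq start-site windows of build GRCm38.p6 were found for 9 of 10 members, as 13 windows; Per2 was not matched. The 250 bases upstream of each start were searched on both strands for the E-box CACGTG, the variant E-box CACGTT, the D-box TTATGTAA, the cyclic AMP response element TGACGTCA and the ROR response element. Over all 32851 windows of 250 bases, 6.02% held CACGTG, 3.85% held CACGTT, 0.819% held TTATGTAA, 1.55% held TGACGTCA and 0.332% held the ROR response element. Among the members, the E-box was found in the windows of Per1 and Cry1, the variant E-box in those of Cry1, Cry2 and Nr1d1, and the D-box in that of Per3, where it occurs 2 times. Per1 has 2 annotated starts, and the E-box lay in the window of the first; the window of the second, chr11:69099902-69100151, held none of these motifs. The 5 windows below belong to the genes on which the glucose and time course results turn. They run 5′ to 3′ on the gene's strand, end at the base before the start, and carry the motifs in capitals.
Per1, first start, chr11:69098699-69098948, plus strand: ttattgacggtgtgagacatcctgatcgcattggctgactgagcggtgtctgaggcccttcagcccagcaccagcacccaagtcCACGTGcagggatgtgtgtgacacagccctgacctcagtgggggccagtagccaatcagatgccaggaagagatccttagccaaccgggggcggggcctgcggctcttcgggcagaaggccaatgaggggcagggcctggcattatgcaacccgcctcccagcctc
Cry1, chr10:85185055-85185304, minus strand: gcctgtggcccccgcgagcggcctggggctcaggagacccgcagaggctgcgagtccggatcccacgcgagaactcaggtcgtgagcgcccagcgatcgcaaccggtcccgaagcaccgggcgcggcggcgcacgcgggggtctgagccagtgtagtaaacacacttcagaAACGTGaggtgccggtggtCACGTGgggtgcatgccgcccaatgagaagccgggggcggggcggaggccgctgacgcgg
Per3, chr4:151044666-151044915, minus strand: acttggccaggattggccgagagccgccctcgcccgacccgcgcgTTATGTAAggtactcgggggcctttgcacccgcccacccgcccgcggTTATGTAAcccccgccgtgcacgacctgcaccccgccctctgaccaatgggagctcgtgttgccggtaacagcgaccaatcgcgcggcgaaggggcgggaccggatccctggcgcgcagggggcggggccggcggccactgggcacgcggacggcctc
Nr1d2, chr14:18239107-18239356, minus strand: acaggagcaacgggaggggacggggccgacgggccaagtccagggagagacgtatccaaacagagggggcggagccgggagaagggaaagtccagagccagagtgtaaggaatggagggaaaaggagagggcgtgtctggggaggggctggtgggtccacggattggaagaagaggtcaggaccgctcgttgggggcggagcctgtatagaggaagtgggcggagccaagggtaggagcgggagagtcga
Dbp, chr7:45704997-45705246, plus strand: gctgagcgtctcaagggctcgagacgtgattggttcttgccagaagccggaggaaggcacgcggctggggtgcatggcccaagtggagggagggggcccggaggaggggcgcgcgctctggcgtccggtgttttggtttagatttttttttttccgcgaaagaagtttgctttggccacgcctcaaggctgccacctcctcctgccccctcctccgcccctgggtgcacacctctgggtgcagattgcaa
The capitals mark the E-box 166 to 161 bases before the first Per1 start, the variant E-box at 79 to 74 and the E-box at 60 to 55 bases before the Cry1 start, and the D-boxes at 205 to 198 and 158 to 151 bases before the Per3 start. The Nr1d2 and Dbp windows held none of these letters. A match is a description of the letters and not a measured binding site.

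Values are MAS5 intensities, a linear brightness scale on which each array's trimmed mean was set to 150 and array medians lay between 28 and 42. The arrays fell into 2 sets by the Gapdh control ratio, the intensity of its 5′ probe set over that of its 3′ probe set. In set A this ratio was 1.03 to 1.48 on 12 arrays (all old groups, fresh young, and young 11 mM replicates 3 and 4), and in set B it was 0.1 to 0.277 on 14 arrays. Young 11 mM was hybridised in both, and 39.7% of genes differed between its set A and set B arrays (limma, adjusted p under 0.05). Of the members, Clock and Cry1 were higher in set A, by 0.57 and 0.85 on the log2 scale, and Cry2 and Nr1d1 were lower, with changes of -0.96 and -1.73. Every comparison below was therefore taken within a set, except where both sets are said to be used. Levels in old and young islets are compared in set A. Where young set B arrays are set beside old ones, age and array set cannot be told apart. Defining islet hormones were high on every array, with Ins2 at 2230 to 5224 and Gcg at 6030 to 14932. The summed intensity of 5 acinar markers was 7031 to 25947 in fresh islets, against 34 to 721 in the cultured groups and 59 to 4621 in the time course.

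**Figure D1:**
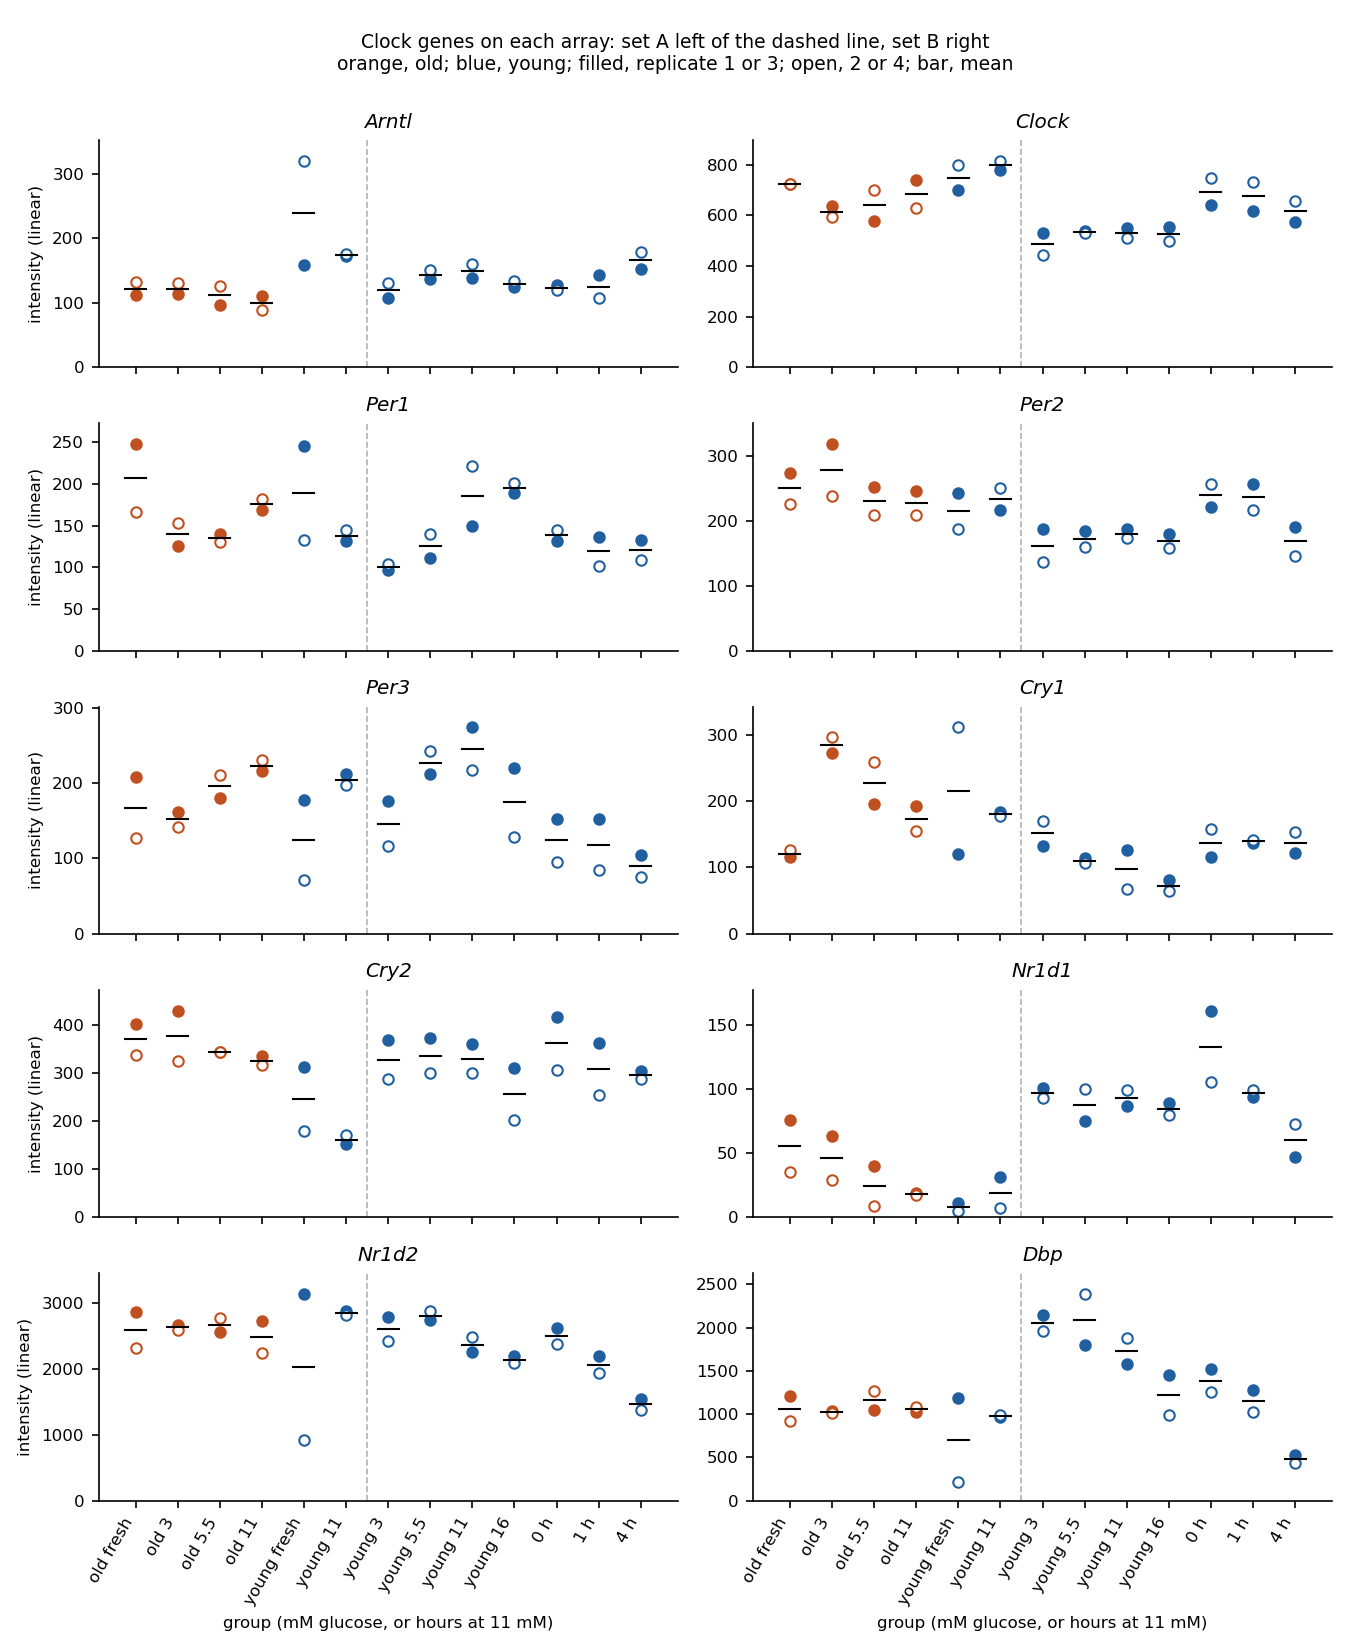
Intensity of each clock gene on each array, by group, with set A and set B arrays distinguished. Dbp and Nr1d2 are lowest in fresh young replicate 2 (213 and 914) and, within set B, after 4 h at 11 mM.

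Fresh young replicate 2 stood apart from its partner in the clock genes. Dbp was read at 1190 in fresh young replicate 1 and at 213 in replicate 2. Nr1d2 was read at 3138 and 914, and Per3 at 177 and 72. Arntl and Cry1 differed the opposite way, at 158 and 320 for Arntl and at 120 and 311 for Cry1. Thus the output and REV-ERB beta genes were low on the array on which the activator Arntl and the repressor Cry1 were high. On the log2 scale, replicate 2 minus replicate 1 was -2.40 for Dbp, -1.76 for Nr1d2, -1.13 for Per3, 1.27 for Cry1 and 0.95 for Arntl. The gap of Dbp was larger than that of 99.98% of all genes. Per1 (245 and 133) and Cry2 (312 and 180) were also lower in replicate 2, whereas the Clock values of 699 and 800 differed by 0.19.

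Over the 10 members the median absolute gap between these fresh young arrays was 0.88, against 0.17 over all genes. A gap above 1 was found for 4 of 10 members and for 1.63% of genes. In the other 12 pairs of arrays the members' median lay between 0.08 and 0.28, and 0 or 1 member exceeded 1. Some other clock genes, picked after their values were seen, were also apart in fresh young replicate 2. Nfil3, the D-box repressor, was read at 114 and 290, and Tef, a D-box activator related to Dbp, at 605 and 294. Ciart, a clock repressor, was read at 33 and 5, both below the median of 42 of their arrays. Bhlhe40, an E-box repressor gene, was close, at 86 and 79. The immediate early genes Fos (4425 and 4553) and Egr1 (2425 and 2082) were also close on the same arrays. Nr4a1, another immediate early gene, was further apart. Its fresh old against young difference was 1.61 with both young arrays and 1.13 without replicate 2. The Gapdh ratio was 1.48 and 1.24, and the acinar sum was 12430 and 7031, in replicates 1 and 2; their part in these gaps was not tested.

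**Figure D2:**
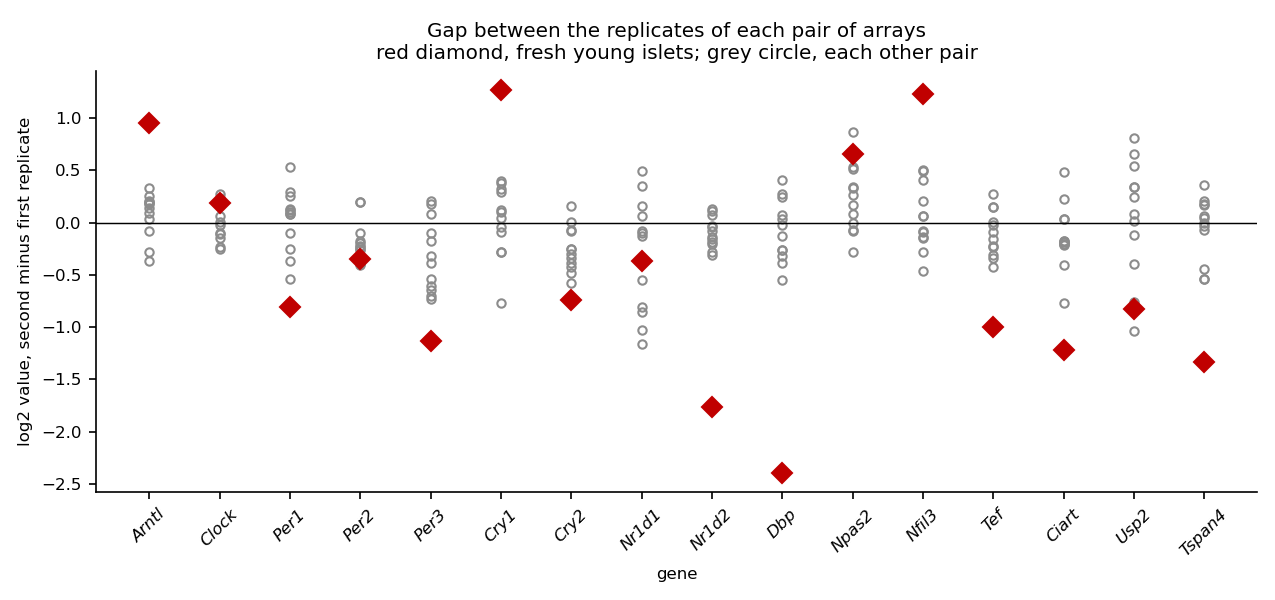
Log2 difference between replicate arrays for the clock genes in each pair, replicate 2 minus replicate 1 (replicate 4 minus 3 for young 11 mM in set A). Npas2, Nfil3, Tef, Ciart, Usp2 and Tspan4 are drawn beside the members. They were picked by hand from the other clock genes tested, and Bhlhe40, which was close in fresh young islets, is not drawn. Fresh young islets have 4 members beyond 1, led by Dbp at -2.40, and every other pair has 0 or 1.

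The glucose series asked which genes follow the glucose concentration during 2 days of culture. In young islets Per1 rose at 11 and 16 mM relative to 3 mM, and Cry1 fell at 16 mM. No other member passed the threshold of adjusted p under 0.05 in the unblocked fit, and 1 of 10 members at 11 mM and 2 of 10 at 16 mM compare with 26.4% and 28.7% of all genes. The members were thus called no more often than genes in general. In these bulk samples fewer cells of a type and less RNA per cell cannot be told apart. The summed intensity of 7 beta cell markers also moved with glucose, from 16736 and 19352 at 3 mM to 33492 and 38271 at 16 mM in young islets; its part in the results was not tested.

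Per1, a repressor of the loop that also answers to outside signals, was read at 97 and 104 at 3 mM, at 111 and 140 at 5.5 mM, at 149 and 222 at 11 mM (set B) and at 189 and 201 at 16 mM. Every value at 5.5, 11 and 16 mM lay above both values at 3 mM. Its mean rose from 101 ± 4.95 (SD, n = 2) at 3 mM to 195 ± 8.49 (SD, n = 2) at 16 mM. On the log2 scale the increase was 0.77 (SE 0.23, limma adjusted p = 0.0165) at 11 mM and 0.86 (SE 0.23, limma adjusted p = 0.00721) at 16 mM. With only 1 array in a group the call at 11 mM was lost without either 3 mM array (0.72, adjusted p = 0.0952, and 0.81, adjusted p = 0.0546) and without replicate 2 at 11 mM (0.50, adjusted p = 0.223), all by limma. At 16 mM the Per1 call was lost narrowly without 3 mM replicate 1 (limma adjusted p = 0.054) and without 16 mM replicate 2 (limma adjusted p = 0.0503).

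Cry1, which encodes a strong repressor of ARNTL and CLOCK, was read at 133 and 170 at 3 mM, at 114 and 106 at 5.5 mM, at 127 and 68 at 11 mM and at 81 and 64 at 16 mM. All values at the 3 higher concentrations lay below those at 3 mM, and those at 16 mM were the lowest pair by mean. Cry1 fell by 0.92 at 16 mM (SE 0.29, limma adjusted p = 0.0204). This call was lost without 3 mM replicate 2 (limma adjusted p = 0.146) and without 16 mM replicate 2 (limma adjusted p = 0.139). It was also lost when the array sets were not separated (limma adjusted p = 0.0784). The difference at 11 mM was -0.60 (SE 0.29, limma adjusted p = 0.133).

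Over all set B groups, time course included, Dbp had the widest range of the members. Its group means there spanned 2.07 on the log2 scale, wider than for 98.9% of genes. Centred on the set mean, they ran from 0.65 at 5.5 mM to -1.42 at 4 h of the time course. The lowest mean of the glucose series was -0.13, at 16 mM. Dbp was read at 2150 and 1966 at 3 mM, at 1795 and 2391 at 5.5 mM, at 1581 and 1881 at 11 mM and at 1447 and 987 at 16 mM. The values at 16 mM lay below all others of the glucose series, and the difference from 3 mM was -0.77 (SE 0.42, limma adjusted p = 0.181). Per3 was read at 176 and 116 at 3 mM, at 212 and 242 at 5.5 mM, at 274 and 217 at 11 mM and at 220 and 129 at 16 mM. Its values at 5.5 and 11 mM were above those at 3 mM, and those at 16 mM overlapped with them.

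Same-numbered young cultures deviated together (correlations of 0.169 to 0.417 over 6 pairs of groups), so the replicate number was also fitted as a block. The block also took up the gap between the fresh young arrays, which was wider in the members than in genes in general. Its added calls therefore do not measure pairing of the cultures alone. With the block, Per1 kept its calls at 11 and 16 mM and Cry1 its call at 16 mM, and 3 of 10 members were called at 11 mM beside 34.9% of genes. The additional calls at 11 mM were Per3 (0.71, limma adjusted p = 0.00859) and Cry1 (limma adjusted p = 0.0212). At 16 mM 4 of 10 members were called beside 36.9% of genes, Dbp (limma adjusted p = 0.00132) and Cry2 (-0.35, limma adjusted p = 0.0348) being added. At 5.5 mM Per3 alone was called (0.61, limma adjusted p = 0.0472), beside 12.8% of genes, and 0 members without the block, beside 6.06%. When fresh young replicate 2 was left out of the fit, Cry1 at 11 mM (limma adjusted p = 0.0421) and Dbp at 16 mM (limma adjusted p = 0.00329) were also called, beside 26.3% of genes at 11 mM and 28.6% at 16 mM.

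The remaining members did not pass the threshold for glucose in young islets in the unblocked fit. Arntl ranged from 107 to 160 over these 8 arrays, Clock from 442 to 554 and Per2 from 137 to 187. Nr1d2 ranged from 2081 to 2879 and Nr1d1 from 75 to 101. For 5.5 against 3 mM and for 16 against 11 mM, 0 members had an unadjusted limma p under 0.05, and 0.00795% of genes were called between 16 and 11 mM.

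**Figure D3:**
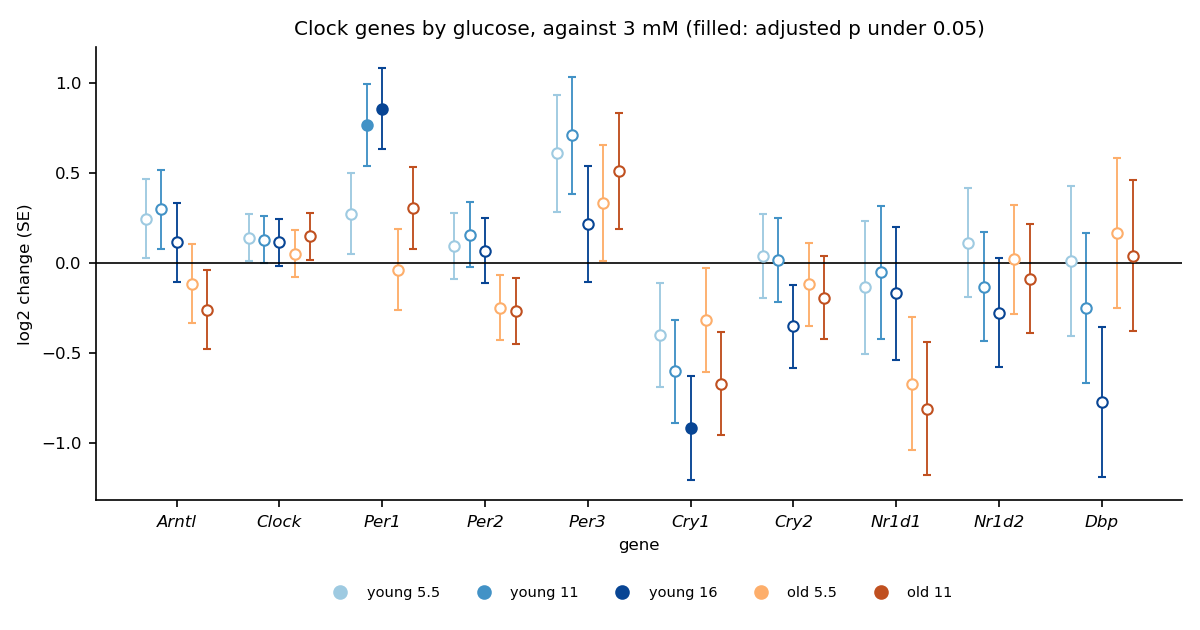
Log2 change of each clock gene with glucose relative to 3 mM in young (set B) and old (set A) islets, with the SE of the limma fit; filled points have an adjusted p under 0.05. Per1 at 11 and 16 mM and Cry1 at 16 mM in young islets are the filled points.

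In old islets 0 of 10 members were called between 11 and 3 mM by limma, beside 24.6% of genes, although 2 (Cry1 and Nr1d1) had an unadjusted p under 0.05. At 5.5 against 3 mM 0 members were called, beside 4.69% of genes, and 0 had an unadjusted p under 0.05. Cry1 in old islets was read at 272 and 297 at 3 mM, at 195 and 259 at 5.5 mM and at 192 and 155 at 11 mM. The old values descended without overlap between 3 and 11 mM, with a difference of -0.67 (SE 0.29, limma adjusted p = 0.0978). This difference was called when fresh young replicate 2 was left out of the fit (limma adjusted p = 0.0263), beside 24.3% of genes. Per1 in old islets was read at 126 and 153 at 3 mM and at 169 and 182 at 11 mM, a difference of 0.31 (SE 0.23, limma adjusted p = 0.367). The old-minus-young difference of this response was -0.46 (SE 0.32, limma adjusted p = 0.686) for Per1 and -0.07 (SE 0.41, limma adjusted p = 0.974) for Cry1. For this difference between ages 0 members were called by limma and 0 had an unadjusted p under 0.05, beside 0.143% of genes called.

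The time course asked what changes within hours of raising glucose after a night at 3 mM. Dbp fell over the 4 h, and it was the only member called in the unblocked fit, 1 of 10 beside 11.4% of genes. Dbp was read at 1517 and 1259 at 0 h, at 1283 and 1025 at 1 h and at 528 and 437 at 4 h. Both values at 4 h lay far below every earlier value of the time course, and the values at 0 and 1 h overlapped. The mean went from 1388 ± 182 (SD, n = 2) to 482.5 ± 64.3 (SD, n = 2), and the log2 change was -1.49 (SE 0.42, limma adjusted p = 0.0236). A second Dbp probe set gave -1.62. The call was lost without any 1 of the 4 arrays, with limma adjusted p between 0.0759 and 0.136 and log2 changes between -1.63 and -1.36. It was also lost when the array sets were not separated (limma adjusted p = 0.0715). The SE draws on the spread within all fitted groups and not within the time course alone. For Dbp the log2 SD was 1.69 in fresh young islets, against 0.188 at 0 h and 0.187 at 4 h.

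The REV-ERB genes took the same direction without passing the unblocked threshold. Nr1d2 was read at 2619 and 2374 at 0 h, at 2192 and 1929 at 1 h and at 1545 and 1381 at 4 h. Its values at the 3 times did not overlap, and the difference between 4 and 0 h was -0.77 (SE 0.30, limma adjusted p = 0.116). The log2 SD of Nr1d2 was 1.25 in fresh young islets, which enter this SE, against 0.0996 at 0 h and 0.113 at 4 h. Nr1d1 was read at 161 and 105 at 0 h, at 94 and 99 at 1 h and at 47 and 73 at 4 h, a difference of -0.97 between 4 and 0 h (SE 0.37, limma adjusted p = 0.102). Per2, a repressor of the loop, was read at 222 and 257, at 257 and 217 and at 191 and 146 at 0, 1 and 4 h, a difference of -0.48 (SE 0.18, limma adjusted p = 0.102). The 4 h values of Nr1d1 and Per2 also lay below all of their earlier ones. Arntl, the gene that the REV-ERB proteins repress, was read at 127 and 119 at 0 h, at 143 and 107 at 1 h and at 153 and 178 at 4 h. Its 4 h values lay above the others, with a difference of 0.38 (SE 0.22, limma adjusted p = 0.315), but a second, dimmer Arntl probe set gave -0.02.

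Same-numbered time course samples deviated together more strongly, with correlations of 0.551 to 0.63 over 3 pairs of groups. With the replicate number as a block, 4 of 10 members were called between 4 and 0 h beside 17.8% of genes, and all 4 fell, as did 9.02% of genes. These were Dbp (limma adjusted p = 1.1e-05), Nr1d2 (limma adjusted p = 8.3e-05), Nr1d1 (limma adjusted p = 0.00977) and Per2 (limma adjusted p = 0.0154). The block also took up the gap between the fresh young arrays, with a median of 0.88 for members against 0.17 for all genes. The added calls therefore do not measure pairing in the time course alone, and the members' share and that of all genes are not on like terms. Between 4 and 1 h 0 members were called without the block, beside 3.09% of genes, and 2 (Per2 and Dbp) had an unadjusted limma p under 0.05. With the block 3 of 10 were called there, beside 8% of genes: Dbp (-1.23, limma adjusted p = 0.000228), Nr1d2 (-0.49, limma adjusted p = 0.00875) and Per2 (-0.46, limma adjusted p = 0.035). Leaving fresh young replicate 2 out of the fit, without the block, gave Dbp and Nr1d2 as called in both comparisons, beside 11.4% and 3.09% of genes. For 4 against 0 h the limma adjusted p was then 3.4e-05 for Dbp and 0.000415 for Nr1d2. Between 1 and 0 h 0 members were called and 0 had an unadjusted limma p under 0.05, beside 0.262% of genes called.

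Among the other members, Clock was read at 640 and 746 at 0 h and at 575 and 657 at 4 h, and Cry1 at 116 and 158 and at 122 and 153. Per1, which rose with glucose over 2 days, was read at 132 and 145 at 0 h, at 136 and 102 at 1 h and at 133 and 109 at 4 h. Neither Per1 nor Cry1 showed a separation of the times, with differences of -0.18 (SE 0.23) and 0.01 (SE 0.29). The acinar sum in the time course was 4621 and 491 at 0 h, 3080 and 59 at 1 h and 1107 and 521 at 4 h; its part in these results was not tested.

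**Figure D4:**
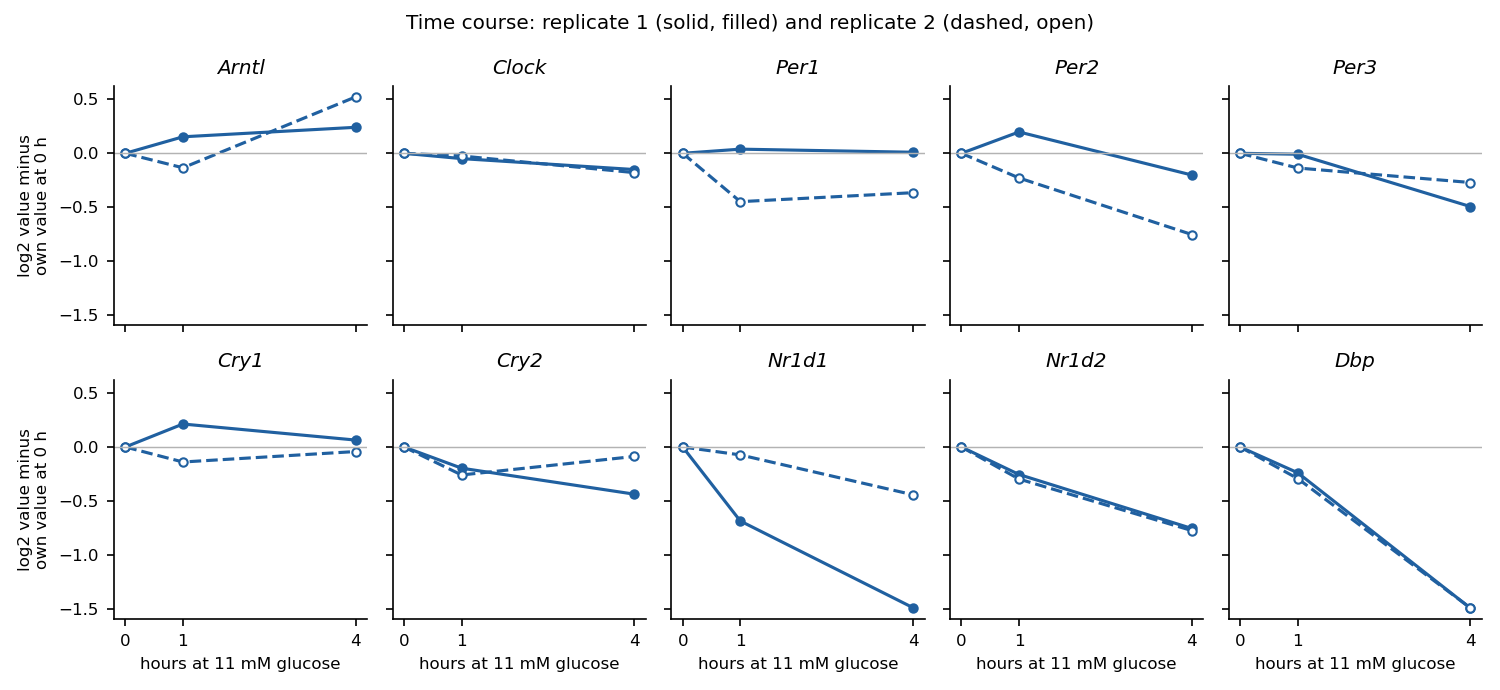
Log2 value of each clock gene at 0, 1 and 4 h of the time course, minus the 0 h value of the same replicate number. Lines join arrays of the same replicate number. In intensity, Dbp goes from 1517 and 1259 to 528 and 437, and Nr1d2 from 2619 and 2374 to 1545 and 1381.

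The age comparisons asked which genes differ between islets of old and young mice. Arntl was lower in old islets both fresh and at 11 mM, Nr1d1 was higher in fresh old islets, and Cry2 was higher in old islets at 11 mM. In each comparison 2 of 10 members were called, beside 9.44% of genes in fresh islets and 15.6% at 11 mM. All of these arrays were in set A. The summed intensity of 4 fibroblast markers was 488 to 1250 in old islets and 1702 to 2872 in young islets of set A; its part in the results was not tested.

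Arntl was read at 112 and 132 in fresh old islets and at 158 and 320 in fresh young islets. The groups did not overlap, and the log2 difference was -0.81 (SE 0.22, limma adjusted p = 0.0236). Without fresh young replicate 2, the array described above, the difference was -0.34 (limma adjusted p = 0.375), and without replicate 1 it was -1.29 (limma adjusted p = 0.00108). The call was also lost without either fresh old array (limma adjusted p = 0.171 and 0.0599) and when the array sets were not separated (limma adjusted p = 0.0722). At 11 mM Arntl was read at 110 and 88 in old islets and at 172 and 176 in young islets, a difference of -0.73 (SE 0.22, limma adjusted p = 0.0285). This call was lost without old replicate 2 (limma adjusted p = 0.21) and without young replicate 3 or 4 (limma adjusted p = 0.102 and 0.122), and with all 4 young arrays (-0.63, limma adjusted p = 0.0606). Over all of set A, Arntl lay at 88 to 132 on the 8 old arrays (median 112.5) and at 158 to 320 on the 4 young arrays (median 174). The old and young arrays of set A thus did not overlap, but the young arrays of set B, at 107 to 178, spanned a range that overlapped with the old ones.

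A second Arntl probe set differed in the same direction, by -0.44 in fresh islets and -0.62 at 11 mM. Clock, the partner of Arntl, was read at 724 and 725 in fresh old and at 699 and 800 in fresh young islets, with old within the young range. At 11 mM Clock was read at 741 and 628 in old and at 780 and 816 in young islets, a difference of -0.22 (SE 0.13, limma adjusted p = 0.269).

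Nr1d1 was dim in set A, and its probe set exceeded the array median on 17 of 26 arrays. It was read at 76 and 35 in fresh old islets and at 11 and 5 in fresh young islets, which did not overlap (1.52, SE 0.37, limma adjusted p = 0.0127). Both fresh young values lay below the median of 42 of their arrays, and fresh old replicate 2 (35) lay below its array median of 37. The size of the difference depended on the offset added before the logarithm. It was 2.63 with an offset of 1 and 0.71 with an offset of 64 (limma adjusted p = 0.00914 and 0.0247). The call was lost without fresh young replicate 2 (1.34, limma adjusted p = 0.102), without fresh old replicate 1 (1.10, limma adjusted p = 0.181) and when the array sets were not separated (limma adjusted p = 0.166). At 11 mM the old values of 19 and 17 lay within the young values of 31 and 7.

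Cry2, a repressor of the loop like Cry1, was read at 334 and 315 in old and at 151 and 171 in young islets at 11 mM. The groups did not overlap and the difference was 0.95 (SE 0.23, limma adjusted p = 0.0087). The young 11 mM arrays of set B gave 360 and 299 for Cry2, above and below the old values, and with all 4 young arrays in 1 group the difference was 0.46 (limma adjusted p = 0.332). Cry2 at young 11 mM was itself lower in set A than in set B (-0.96). The difference of 0.46 therefore mixes age with array set, whereas that of 0.95 was taken within set A. No old array was in set B, so the age difference could not be read there. The call was lost without old replicate 2 (limma adjusted p = 0.0522) and without young replicate 3 (limma adjusted p = 0.0713). In fresh islets Cry2 was read at 402 and 336 in old and at 312 and 180 in young mice, a difference of 0.60 (SE 0.23, limma adjusted p = 0.11).

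Culture itself was compared with fresh islets at each age. In old islets Cry1 rose on culture at 3 mM, from 116 and 126 fresh to 272 and 297, and was the only member called there, 1 of 10 beside 35.1% of genes. All cultured old values of Cry1 lay above the fresh old ones, since 5.5 mM gave 195 and 259 and 11 mM gave 192 and 155. The log2 change at 3 mM was 1.13 (SE 0.29, limma adjusted p = 0.00442), and between 1.07 and 1.19 with each of its 4 arrays left out in turn, without loss of the call. At 11 mM against fresh in old islets 0 members were called by limma, beside 5.56% of genes, and 1 (Nr1d1, -1.01) had an unadjusted p under 0.05. Fresh islets differed from cultured ones in acinar markers, as given above, and in the summed endothelial markers, at 1574 to 1815 fresh against 212 to 561 otherwise. Whether these had a part in the Cry1 change was not tested.

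In young islets of set A 0 members were called between 11 mM and fresh by limma, beside 4.19% of genes, whereas 4 (Per3, Cry2, Nr1d2 and Dbp) had an unadjusted p under 0.05. Dbp was read at 961 and 985 at 11 mM and at 1190 and 213 when fresh, and Nr1d2 at 2878 and 2816 and at 3138 and 914. The cultured values of both genes lay between their fresh values. For the difference of this culture change between ages 0 members were called, beside 0.0238% of genes, and 1 (Nr1d1) had an unadjusted limma p under 0.05.

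**Figure D5:**
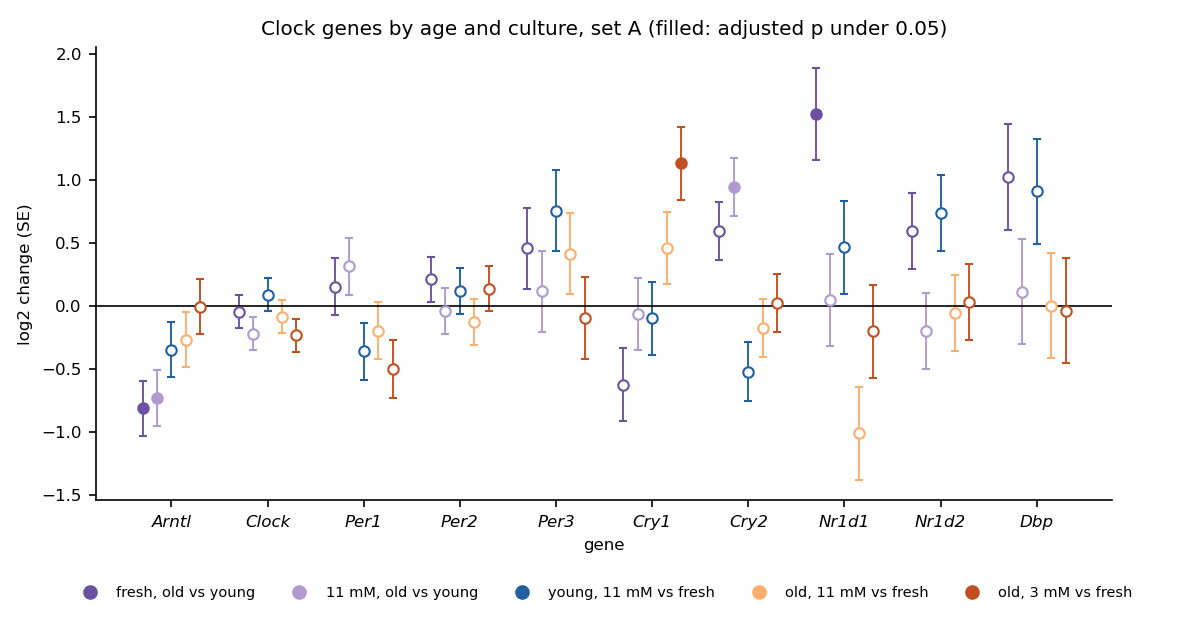
Log2 changes of the clock genes, with the SE of the limma fit, for old against young islets (fresh and at 11 mM) and for culture against fresh, all within set A; filled points have an adjusted p under 0.05. Arntl is at -0.81 and -0.73 for age, and Cry1 at 1.13 for old islets at 3 mM against fresh.

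Across the 13 group means, each centred on the mean of its array set, Dbp and Nr1d2 followed each other most closely, with a Pearson correlation of 0.948 (0.926 without fresh young replicate 2). Per3 correlated with Dbp at 0.757 and with Nr1d2 at 0.71. Per1 and Cry1 ran opposite to each other, at -0.835 (-0.883 without that array). Arntl correlated with Dbp at -0.561, and at -0.293 without that array. These correlations describe 13 means that share array sets and, within a comparison, replicate numbers. Of all genes, those most like Dbp over the 13 means were Zbtb11 (0.949), Nr1d2, Rslcan18 (0.933), Crebrf (0.927) and Ap5z1 (0.92). Those most like Arntl were Fam25c (0.946), Kif4 (0.927), Abhd13 (0.925), Ptn (0.917) and Rbm41 (0.913). Without fresh young replicate 2, the correlation of Zbtb11 with Dbp was 0.828 and that of Fam25c with Arntl 0.805.

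A further list of 24 clock genes (other transcription factors, kinases and ubiquitin ligase parts, and output genes) had 20 members tested, and several of these responded to glucose and culture. In young islets 4 of the 20 rose and 3 fell at 11 against 3 mM, where 13.3% of all genes rose and 13.1% fell. In old islets 3 rose and 4 fell, beside 13.9% and 10.6% of all genes. The median log2 change of the list was -0.03 in young and -0.11 in old islets, against 0.05 and 0.04 over all genes. Nampt, the rate-limiting enzyme of NAD salvage and an output of the clock, was read in young islets at 565 and 472 at 3 mM and at 196 and 210 at 11 mM. It fell by 1.28 in young islets (SE 0.19, limma adjusted p = 7.1e-05) and by 1.24 in old islets (limma adjusted p = 0.000118). Nfil3 fell by 1.12 in young and by 1.34 in old islets (limma adjusted p = 0.00487 and 0.00126). Noct, a rhythmic phosphatase, rose by 0.69 in young and 0.50 in old islets (limma adjusted p = 0.00121 and 0.013). Both Noct calls were lost when the array sets were not separated (0.35 and 0.50, limma adjusted p = 0.171 and 0.143), and the old call was also lost without old 3 mM replicate 1 or 2 (adjusted p = 0.0613 and 0.0696) or old 11 mM replicate 1 (0.36, adjusted p = 0.145). Bhlhe40, which encodes the E-box repressor DEC1, fell by 0.85 in old islets (limma adjusted p = 0.00224) and by 0.59 in young islets (limma adjusted p = 0.0235). The young call of Bhlhe40 was lost without 3 mM replicate 2 (adjusted p = 0.184) or 11 mM replicate 2 (adjusted p = 0.201). Btrc, a ubiquitin ligase part that acts on PER proteins, rose by 1.17 in young and 1.02 in old islets (limma adjusted p = 0.000195 and 0.000737). With all Btrc probe sets averaged, the old change was 0.39 (limma adjusted p = 0.0634).

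In the time course 5 of these 20 genes fell and 1 rose between 4 and 0 h, beside 5.64% and 5.72% of all genes, with a list median of -0.28 against -0.01 over all genes. Ciart was read at 123 and 104 at 0 h and at 37 and 30 at 4 h, a fall of 1.39 (SE 0.29, limma adjusted p = 0.00351). Rora, which encodes an activator at ROR response elements, was read at 600 and 534 at 0 h and at 278 and 282 at 4 h, and fell by 0.98 (limma adjusted p = 0.00188). Bhlhe40 was read at 242 and 275 at 0 h and at 135 and 113 at 4 h, and fell by 0.97 (limma adjusted p = 0.00163). All 3 were lower at 4 h on both arrays, as Dbp was. Btrc rose by 0.96 (limma adjusted p = 0.00277), which was 0.14 with its probe sets averaged (limma adjusted p = 0.663) and without 0 h replicate 2 was 0.70 (limma adjusted p = 0.0756). When old islets at 3 mM were compared with fresh ones, 7 of the 20 rose and 3 fell, beside 16.6% and 18.5% of all genes. Bhlhe40 rose by 1.22 and Nampt by 1.30 there (limma adjusted p = 4.4e-05 and 3.4e-05), while Btrc fell by 1.23 (limma adjusted p = 6.5e-05).

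A list of 13 genes that answer to serum, cyclic AMP or glucocorticoids, the outside signals that can reset peripheral clocks, had 12 members tested. At 16 against 3 mM in young islets 4 rose and 1 fell, beside 14.5% and 14.2% of all genes. Crem, a cyclic AMP responsive repressor gene, was read at 118 and 119 at 3 mM and at 318 and 501 at 16 mM and rose by 1.63 (SE 0.25, limma adjusted p = 6.3e-05). Fos was read at 55 and 66 and at 162 and 313, and rose by 1.67 (SE 0.32, limma adjusted p = 0.000574). Both had higher values on each 16 mM array, as Per1 did. Sgk1 also rose (1.12, limma adjusted p = 0.00418), whereas Fkbp5 of the same list fell (-0.75, SE 0.15, limma adjusted p = 0.001). With its probe sets averaged, the Fkbp5 change was -0.39 (limma adjusted p = 0.0797). At 11 against 3 mM 3 of the 12 rose and 1 fell in young islets, beside 13.3% and 13.1% of all genes, and 2 rose and 0 fell in old islets, beside 13.9% and 10.6%. Between 4 and 0 h 1 rose (Fos, 1.19, limma adjusted p = 0.0195) and 1 fell (Klf9, -0.52, limma adjusted p = 0.0313), of 12 and beside 5.72% and 5.64% of all genes. The Fos call was lost without 0 h replicate 1 (0.67, adjusted p = 0.297) or without either 4 h array (adjusted p = 0.083 and 0.0972), and the Klf9 change was -0.33 with its probe sets averaged (adjusted p = 0.117). In fresh islets Fos was read at 7199 and 5258 in old and at 4425 and 4553 in young mice, against 28 to 313 on all other arrays. In fresh old against fresh young islets 5 of the 12 rose and 1 fell, beside 5.75% and 3.7% of all genes, led by Fosb (2.20, SE 0.30, limma adjusted p = 0.000142).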

How the data were processed

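Per the labels, RNA was labelled after 2 rounds of cDNA synthesis, and per the submitters' processing notes the authors used MAS5. The deposited intensity values are whole numbers on a linear scale. Of 45101 probe sets, 34945 carry 1 gene symbol, 932 several and 9160 none, and 64 are controls. Intensity plus an offset of 16 was taken to log2. A probe set was kept if it exceeded the median of its array on 2 or more arrays, and the brightest single-gene probe set stood for each of 12580 genes. limma 3.58.1 in R 4.3.3 was fitted to all 26 arrays with an intensity trend and 13 means (12 groups, young 11 mM split by array set), which leaves 13 residual degrees of freedom. Array sets were defined by a Gapdh ratio cut of 0.5. Benjamini-Hochberg adjustment ran over all genes in each of 16 comparisons. Precision is limited by how few arrays each group has. A gene's SE draws on its spread within all fitted groups, so the fresh young gap widens the SE of Dbp and Nr1d2 in every comparison. The test was checked on simulated data.

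The members and lists were chosen with earlier results of these data known. All 10 members are named; of each list, up to 4 genes with the smallest adjusted p per comparison. At 11 against 3 mM, Bhlhe40 in young and Noct in old islets fell outside this rule, and they and the list genes on fresh young replicate 2 were chosen after their values were seen. Likeness is Pearson correlation over centred group means. The replicate number in the titles was checked for pairing by correlating deviations from group means. The correlations were 0.551 to 0.63 in the time course, 0.169 to 0.417 in young cultures and 0.0556 to 0.196 in old islets. The young and old ranges overlapped, and whether samples were paired was not tested. Promoter windows are from RefSeq, GRCm38.p6. Leaving fresh young replicate 2 out of the fit was an alternative chosen after seeing the data. Of the listed genes, Fbxl21 and Zbtb16 did not pass the filter, and some others are not reported here.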

Additional observations from a re-analysis of the deposited data

How the results depend on the processing

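No member's change was reversed under any alternative. All 160 member changes kept their side of the threshold under an offset of 1, quantile normalization, no filter and no intensity trend. With an offset of 64, 2 members were called between 4 and 0 h, beside 11.7% of genes. With the mean of each gene's probe sets 1 more was called for age at 11 mM (Nr1d2, -1.15), beside 14.9% of genes. There the bright Nr1d2 probe set gave -0.20 and the dim one -2.09, which exceeded the array median on 11 of 26 arrays. Without separating the array sets the members called were 1 for young 16 against 3 mM (18.1% of genes). They were 0 for 4 against 0 h (4.94%), fresh old against young (2.11%), and old against young at 11 mM (6.91%). With the replicate block they were 1, 3 and 4 for young 5.5, 11 and 16 against 3 mM, 2 for old 11 against 3 mM (33.1% of genes), 4 for 4 against 0 h, 3 for 4 against 1 h, 6 for fresh old against young (18.2%), 4 for young 11 mM against fresh (8.58%), 1 for old 11 mM against fresh (10.8%), 2 for old 3 mM against fresh (43.2%) and 1 for the age difference of the culture change (0.477%). In old islets same-numbered samples showed little shared deviation (correlations of 0.0556 to 0.196). In fresh young islets, and in young 11 mM within set A, the block absorbs the difference between the arrays by its construction. The block changed no other count. With fresh young replicate 2 left out of the fit the counts were 2 for young 11 against 3 mM (26.3% of genes) and 3 for young 16 against 3 mM (28.6%), where Dbp joined Per1 and Cry1. They were 1 for old 11 against 3 mM (24.3%), and 2 each for 4 against 0 h (11.4%) and 4 against 1 h (3.09%). Leaving out each array of a comparison in turn gave 0 to 6 members for fresh old against young (3.29% to 5.31% of genes), 0 to 4 for young 11 mM against fresh (2.28% to 2.78%), 0 to 2 for young 11 against 3 mM (15.3% to 20.5%), for young 16 against 3 mM (18.7% to 24.4%), for old against young at 11 mM (5.79% to 13.7%) and for the age difference of the culture change (0% to 0.0556%), 1 to 2 for old 3 mM against fresh (22.7% to 26.9%), and 0 to 0 in the remaining comparisons, 4 against 0 h included. The 6 and the 4 calls came without fresh young replicate 1, beside 5.31% and 2.32% of genes. Of these 720 changes 687 kept their side, 21 lost a call and 12 gained one. With a lone array in a group, that array is assumed to vary like the other groups. Dim probe sets, Nr1d1 in set A above all, limit what the signal can show.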
